A study of Mus musculus with 12 samples.

Results

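The 10 genes described here, Fos, Fosb, Fosl1, Jun, Junb, Egr1, Ier2, Ier3, Atf3 and Myc, are immediate early genes and were chosen by name, out of 54532 genes in the deposited count table. They were measured by RNA sequencing of polyadenylated RNA in mouse ATDC5 cells, a wild-type line labelled as cartilage progenitors. All cultures were first grown at 37 °C in DMEM with serum. Cultures were then exposed for 10 min to 37 °C, 40 °C or 44 °C, with 4 libraries at each temperature. The 37 °C cultures are the unheated comparison, and the interval from the exposure to RNA extraction is not given in the sources used here. All libraries come from 1 established line, grown in serum, which is itself known to switch on several of these genes.

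Immediate early genes are those that cells transcribe first after a signal, from proteins already present and without new protein synthesis. Growth factors and stress reach them through MAP kinases, which activate factors such as SRF and its partners on the promoters. Their mRNAs usually decay fast, so their level tracks recent transcription. Fos and Jun proteins pair to form AP-1, a transcription factor that in cartilage cells is known for its part in proliferation, matrix breakdown and maturation. The genes thus hold 3 Fos family members (Fos, Fosb, Fosl1), 2 Jun family members (Jun, Junb) and the related stress factor gene Atf3. The others are the zinc-finger factor gene Egr1, the early response genes Ier2 and Ier3, and Myc.

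After 10 min at 44 °C, Junb fell relative to 37 °C, the 1 gene of the 10 that passed the test, where 13.7% of all genes tested passed. It averaged 319 ± 18.3 CPM (depth-scaled counts, with TMM-scaled library sizes) at 44 °C and 389.5 ± 11.3 CPM at 37 °C (SD, n = 4 each). The other 9, classical stress-inducible genes such as Fos, Egr1 and Atf3 included, did not pass, which does not show that they were unaltered, and their fitted folds at 44 °C over 37 °C lay between 0.781 and 1.26. At 40 °C against 37 °C, and at 44 °C against 40 °C, no gene of the 10 was called. In bulk RNA, fewer cells of a type and less RNA per cell cannot be told apart.

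A gene was called where edgeR's quasi-likelihood test, fitted to all 12 libraries and 14424 genes, gave a Benjamini-Hochberg adjusted p under 0.05. For 44 °C against 37 °C that held for 13.7% of all genes tested, 6.58% higher and 7.11% lower, and for 1 of the 10. Scaling by library totals gave 1096 genes higher and 912 lower, against 949 higher and 1026 lower with TMM. The median log2 fold change of the 10 was 0.02, beside −0.00034 over all genes, with 5 above and 5 below 0. The 44 °C and 37 °C libraries did not overlap for 2 of the 10, Junb and Egr1, both lower, and for 17.8% of all genes (8.62% higher, 9.13% lower). At an unadjusted p under 0.05 there were 2 of the 10, Junb and Fosb, beside 30.9% of all genes. For 40 °C against 37 °C edgeR called 0 genes of 14424 (0%). At an unadjusted p under 0.05 there were 752 (5.21%) over all genes and 1 among the 10, Junb, and DESeq2 called 4 genes, none of them among the 10. Groups were apart for 2 of the 10, Junb (lower) and Myc (higher), and for 3.83% of all genes. For 44 °C against 40 °C edgeR called 725 genes (5.03%) and 0 of the 10, with 2 of the 10 (Fosb and Junb) at an unadjusted p under 0.05, where all genes gave 20.1%. DESeq2 called both of these. Of the 725, 271 were higher (1.88% of genes tested) and 454 lower (3.15%), and scaling by library totals instead gave 394 higher and 355 lower. Groups were apart for 1 of the 10, Fosb (higher), beside 5.28% of all genes in that direction, 5.44% in the other and 10.7% in either. The median log2 fold change of the 10 was −0.10 at 40 °C over 37 °C and 0.03 at 44 °C over 40 °C, beside −0.00095 and 0.01 over all genes. A joint test over the 3 temperatures passed 8.21% of genes, and Junb alone among the 10 (adjusted p = 0.00702).

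Total counts lay between 16269026 and 19506705 a library, and a count of 0 allows up to 0.154 to 0.184 CPM, for counting error only. The progenitor markers Sox9, Runx2 and Prrx1 were detected (48.6, 60.7 and 264 CPM on library totals at 44 °C, and 54.5, 63.1 and 348 CPM at 37 °C). Col2a1 was near 1.25 CPM at 44 °C and 1.22 CPM at 37 °C, and Sox6 had at most 2 reads. Of macrophage markers, Adgre1 was at 0 in all 12 libraries and Ptprc had at most 1 read, while Cd68, which other cells also make, averaged 24.1 CPM at 44 °C, against 31.7 CPM at 37 °C. The summed level of 5 endothelial markers was 4.03 to 5.97 CPM at 44 °C and 2.19 to 3.30 CPM at 37 °C, and that of 6 perivascular markers was 135 to 163 CPM at 44 °C and 204 to 232 CPM at 37 °C. Of the 3 endothelial genes tested 2 rose (Pecam1 and Cdh5), and of the 3 perivascular genes tested 3 fell (Acta2, Pdgfrb and Cspg4). Over all genes 6.58% rose and 7.11% fell. The endothelial levels were low, with at most 39 reads a library for Pecam1 and 14 for Cdh5. Tek, too low to be tested, went the other way (0.0447 CPM at 44 °C, 0.206 CPM at 37 °C). Of 7 progenitor genes tested Prrx1 fell, and the summed level of that list was 343 to 464 CPM at 44 °C and 466 to 548 CPM at 37 °C. The epithelial sum was 119 to 150.4 CPM at 44 °C and 110.4 to 147 CPM at 37 °C, with Krt14 called lower. Krt18, the largest part of that sum, went the other way (109.5 CPM at 44 °C, 91.9 CPM at 37 °C, edgeR adjusted p = 0.0748, not called). It was called higher at 44 °C against 40 °C (adjusted p = 0.0385). The part of these markers in the Junb result was not tested.

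**Figure D1:**
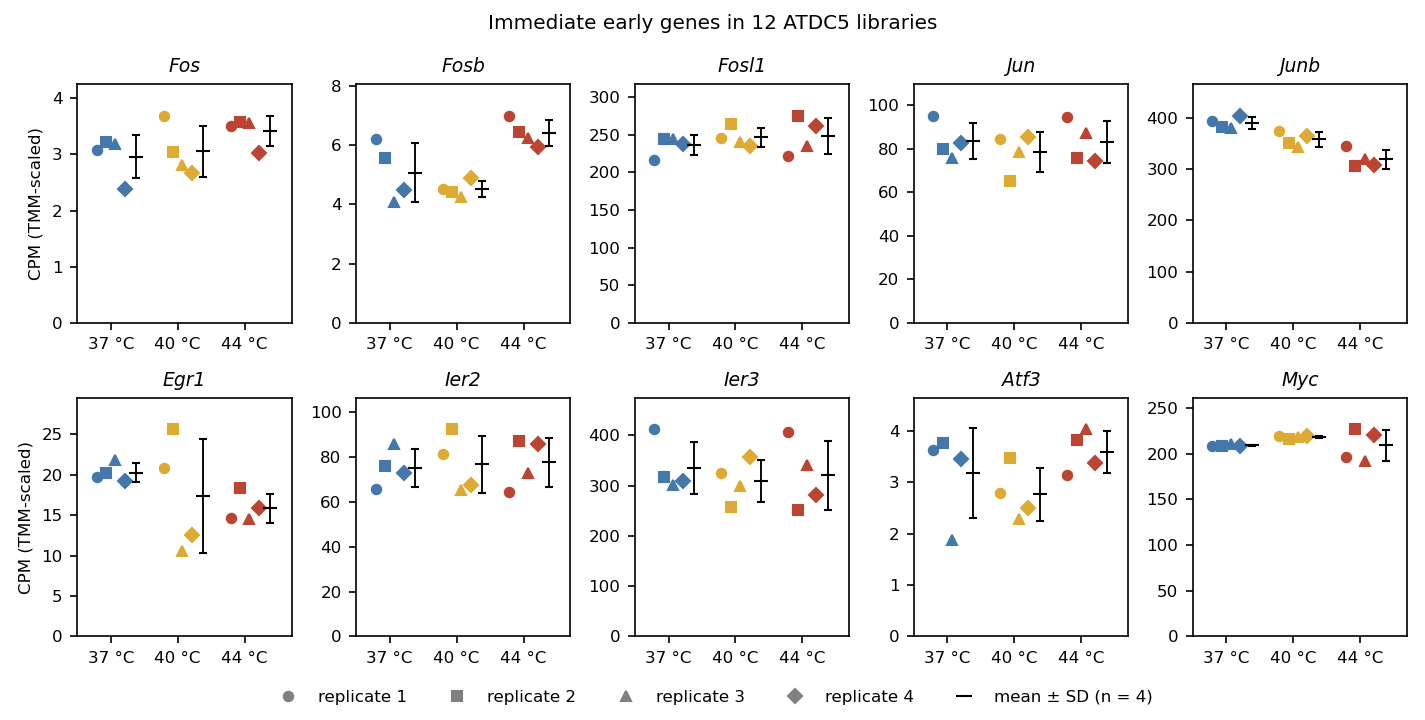
CPM of each of the 10 genes (vertical axes, TMM-scaled, starting at 0) in each of the 12 libraries, by temperature. Symbols mark the replicate numbers, and black marks the mean ± SD of 4 libraries. Junb at 44 °C (305 to 345 CPM) lies under all libraries at 37 °C (379.9 to 404 CPM), and the Egr1 libraries at 40 °C split into 2 high and 2 low.

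**Figure D2:**
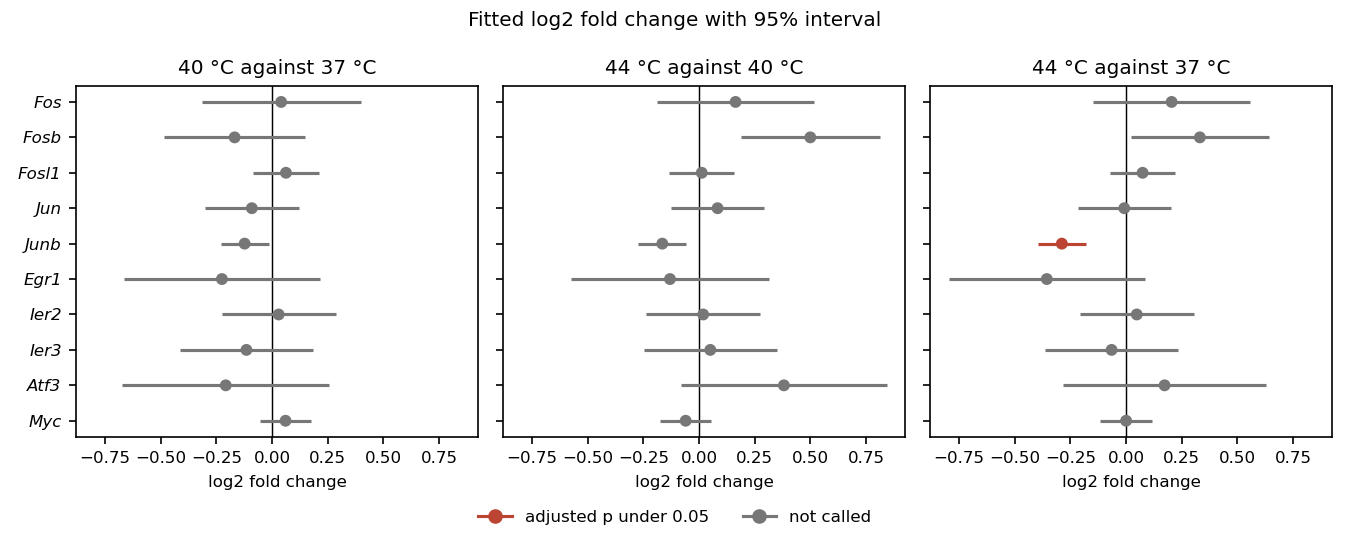
Fitted log2 fold change of each gene with its 95% interval (horizontal axis) in the 3 comparisons, called genes in red. Junb at 44 °C against 37 °C is the only one called. The intervals of Atf3, Egr1 and Fos are the widest, followed by those of Fosb and Ier3.

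The genes differed far more among themselves than across temperatures. Scaled to gene length, Ier3 stood highest at 37 °C with 297 ± 45.9 CPM per kilobase. It was followed by Junb (169 ± 4.91), Fosl1 (138 ± 7.74), Myc (77.1 ± 0.303), Ier2 (49.3 ± 5.48) and Jun (26.1 ± 2.62 CPM per kilobase). A second tier lay well below, with Egr1 at 4.52 ± 0.258, Atf3 at 1.48 ± 0.405, Fos at 1.26 ± 0.166 and Fosb at 0.813 ± 0.157 CPM per kilobase (SD, n = 4 each). Neighbours in this order did not overlap at 37 °C, except Atf3 and Fos. Atf3 and Fos overlapped at 40 °C and 44 °C as well. Junb and Fosl1 were apart at 37 °C and overlapped at 40 °C and at 44 °C, where Fosl1 had the higher mean (146 ± 14.3 against 139 ± 7.97 CPM per kilobase). Ier3 had a length-scaled level above that of 99.08% of the genes tested, and Fosb above that of 18.5%.

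**Figure D3:**
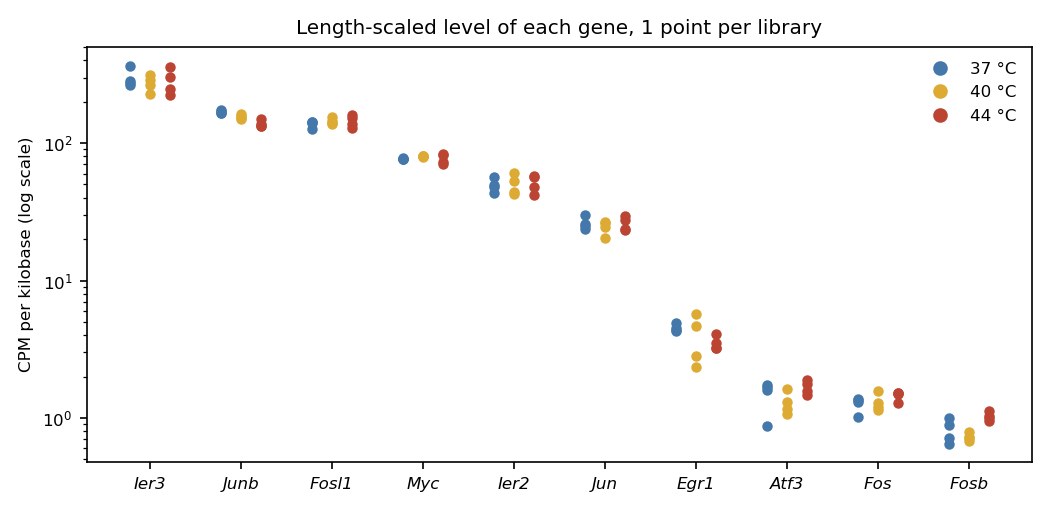
Level of each gene per kilobase of gene length (vertical axis, log scale), with 1 point per library and the temperatures side by side, ordered by the 37 °C mean. Levels run from Ier3 (297 CPM per kilobase at 37 °C) to Fosb (0.813), and for each gene the 3 temperatures lie close together on this scale.

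The Fos family proteins bind DNA as partners of Jun proteins. Fosl1, which encodes FRA1 and is known for sustained rather than brief expression, held the family's largest length-scaled share. Such shares depend on the gene lengths given with the counts, which need not be those of the expressed transcripts. Unscaled, Fosl1 averaged 236 CPM at 37 °C and its relative Fosl2 153 CPM, while the length-scaled share of Fosl2 was 10.1%. Of the length-scaled reads of Fos, Fosb, Fosl1 and their relative Fosl2, Fosl1 took 88.5% ± 1.46 at 37 °C, 88.8% ± 1.24 at 40 °C and 88.5% ± 1.59 at 44 °C. Fos took 0.807% ± 0.109, 0.798% ± 0.115 and 0.89% ± 0.11 at the same temperatures (SD, n = 4 each). Fosl1 (ENSMUSG00000024912, chromosome 19, 5447703 to 5455945 on mm10, plus strand) itself had 217, 245, 245 and 238 CPM at 37 °C, in the order of the replicate numbers 1 to 4. At 40 °C it had 246, 265, 241 and 235 CPM, and at 44 °C it had 222, 276, 236 and 262 CPM. The 3 ranges overlapped, and the log2 fold change at 44 °C over 37 °C was 0.07 (95% interval −0.07 to 0.22, edgeR adjusted p = 0.495).

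Fos (ENSMUSG00000021250, chromosome 12, 85473890 to 85477273 on mm10, plus strand), the prototype immediate early gene, was counted from few reads. It had 61, 53, 54 and 40 reads at 37 °C, 62, 48, 54 and 47 reads at 40 °C and 60, 59, 61 and 53 reads at 44 °C. These are 2.38 to 3.21 CPM at 37 °C, 2.68 to 3.69 CPM at 40 °C and 3.03 to 3.58 CPM at 44 °C. All 3 ranges overlapped. Counting alone gives a coefficient of variation (CV, SD over mean) of 13.1% to 14% at these depths, and the observed values were 13.2% (37 °C), 14.8% (40 °C) and 7.71% (44 °C). The log2 fold change at 44 °C over 37 °C was 0.20 (95% interval −0.15 to 0.56, edgeR adjusted p = 0.431).

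Fosb (ENSMUSG00000003545, chromosome 7, 19302696 to 19310051 on mm10, minus strand), a Fos paralogue that is likewise known for rapid induction, had 4.07 to 6.20 CPM at 37 °C, 4.26 to 4.90 CPM at 40 °C and 5.94 to 7.0 CPM at 44 °C. Every 44 °C library exceeded every 40 °C library, and 1 of the 37 °C libraries (replicate 1) reached into the 44 °C range. The log2 fold change was 0.50 ± 0.15 (SE) for 44 °C against 40 °C (edgeR adjusted p = 0.0651, higher in 4 of 4 libraries, not called). DESeq2 called it (adjusted p = 0.0277), and over all alternatives the adjusted p lay between 0.0114 and 0.158. For 44 °C against 37 °C it was 0.33 (adjusted p = 0.136), and for 40 °C against 37 °C −0.17 (adjusted p = 0.827). The counts do not separate the full-length and the shorter splice form of Fosb.

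Junb encodes a Jun family protein that pairs with Fos proteins and is known to restrain c-Jun activity. In libraries 1 to 4 it had 393, 381, 379.9 and 404 CPM at 37 °C, 374, 349.7, 343 and 364 CPM at 40 °C, and 345, 305, 318 and 307 CPM at 44 °C. The 37 °C range lay above both others, while the 40 °C and 44 °C ranges overlapped through replicate 1 at 44 °C. At 44 °C over 37 °C the log2 fold change was −0.29 ± 0.05 (SE), a fold of 0.819 (95% interval of the log2 value −0.40 to −0.18, edgeR adjusted p = 0.00245, lower in 4 of 4 libraries). Junb stayed called in this comparison in every alternative run, with adjusted p between 1.11e-06 and 0.0121. At 40 °C over 37 °C it had −0.12 (95% interval −0.23 to −0.02, adjusted p = 0.823), where groups apart and lower made up 2.23% of all genes. At 44 °C over 40 °C it had −0.17 (adjusted p = 0.0743), and it was called there without 44 °C replicate 1 (adjusted p = 0.0181) and with DESeq2 (0.0204), in a range of 0.00143 to 0.203 over its alternatives.

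Junb (ENSMUSG00000052837, chromosome 8, 84974484 to 84978718 on mm10, minus strand) overlaps 351 bases of Prdx2, a peroxiredoxin gene on the other strand. The sources do not say if reads were counted by strand, and reads in that stretch may belong to either gene. Prdx2 averaged 304 ± 14.2 CPM at 44 °C, against 315 ± 7.89 CPM at 37 °C (SD, n = 4 each), with a log2 fold change of −0.05 (edgeR adjusted p = 0.468). Among other genes with a mean of at least 5 CPM, the one whose log2 CPM was most like that of Junb over the 12 libraries was Gm37131, a transcript model on chromosome 3. This is the closest of 10538 genes searched (Pearson r = 0.977), given as a description only.

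Jun (ENSMUSG00000052684, chromosome 4, 95049034 to 95052222 on mm10, minus strand), the gene of the founding AP-1 subunit c-Jun, is a classical target of stress-activated kinases. It had 75.8 to 95.1 CPM at 37 °C, 65.3 to 85.2 CPM at 40 °C and 74.2 to 94.3 CPM at 44 °C. The ranges overlapped, and the log2 fold change at 44 °C over 37 °C was −0.01 (95% interval −0.22 to 0.20, edgeR adjusted p = 0.966). Within the Jun family (Jun, Junb and Jund, reads scaled to length), Jun took 11.8% ± 0.855, 12.0% ± 1.08 and 13.9% ± 0.68 at the 3 temperatures, low to high. Junb took 76.6% ± 1.5, 76.4% ± 1.05 and 74.5% ± 1.36 of that sum. The Jun shares at 44 °C (13.3% to 14.6%) lay above those at 37 °C (11.3% to 13.1%), and the Junb shares of the same libraries overlapped. Junb made up most of the sum, so a lower Junb raises the share of Jun with Jun itself unaltered. The shares were not tested. Jun shares 689 bases with Junos, an antisense gene that had at most 25 reads in a library.

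Atf3 (ENSMUSG00000026628, chromosome 1, 191170296 to 191218039 on mm10, minus strand) encodes a stress-induced repressor of the ATF/CREB family that also pairs with Jun proteins. Its reads were few, 32 to 72 at 37 °C, 44 to 55 at 40 °C and 54 to 69 at 44 °C. It had 1.89 to 3.76 CPM at 37 °C, 2.29 to 3.48 CPM at 40 °C and 3.15 to 4.04 CPM at 44 °C, all overlapping. The log2 fold change was 0.17 at 44 °C over 37 °C (95% interval −0.28 to 0.63, edgeR adjusted p = 0.62) and −0.01 without 37 °C replicate 3, its lowest library (adjusted p = 0.979). It was 0.38 at 44 °C over 40 °C (95% interval −0.08 to 0.84, adjusted p = 0.347).

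Promoter windows from RefSeq (build GRCm38.p6, the 250 bases before the annotated start) were found for 6 of the 10 genes. Those of Junb, the called gene, and of Fos, Jun and Atf3, well-studied stress-responsive genes that were not called, are printed 5′ to 3′ to set them side by side. Capitals mark every match, on either strand, to the letters searched.
Junb, chr8:84978749-84978998, minus strand: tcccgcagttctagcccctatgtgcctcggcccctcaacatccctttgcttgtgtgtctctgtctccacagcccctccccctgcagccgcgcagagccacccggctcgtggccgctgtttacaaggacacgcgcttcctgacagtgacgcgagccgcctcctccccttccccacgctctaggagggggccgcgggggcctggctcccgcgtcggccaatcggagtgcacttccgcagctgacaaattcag
Fos, chr12:85473640-85473889, plus strand: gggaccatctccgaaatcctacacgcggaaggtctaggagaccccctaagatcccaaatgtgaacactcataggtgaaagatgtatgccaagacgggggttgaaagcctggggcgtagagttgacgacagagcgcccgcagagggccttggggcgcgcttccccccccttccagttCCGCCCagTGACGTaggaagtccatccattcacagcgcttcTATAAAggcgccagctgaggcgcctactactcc
Jun, chr4:95052223-95052472, minus strand: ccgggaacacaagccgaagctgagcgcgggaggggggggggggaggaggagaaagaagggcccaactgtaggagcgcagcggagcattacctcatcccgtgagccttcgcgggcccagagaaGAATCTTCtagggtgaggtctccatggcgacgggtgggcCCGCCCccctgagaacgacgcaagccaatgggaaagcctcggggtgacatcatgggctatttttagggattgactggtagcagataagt
Atf3, chr1:191183334-191183583, minus strand: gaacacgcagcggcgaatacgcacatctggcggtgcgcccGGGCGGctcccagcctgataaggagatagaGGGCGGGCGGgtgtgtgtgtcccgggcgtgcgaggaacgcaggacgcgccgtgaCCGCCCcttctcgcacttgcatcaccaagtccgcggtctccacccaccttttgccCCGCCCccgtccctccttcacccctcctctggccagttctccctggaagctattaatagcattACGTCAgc
The letters searched were GGGCGG (GC box, in 32.7% of 32851 windows of this length), TATAAA (the core promoter box known by its first 4 letters, 12.4%), TGACGT (a shortened cAMP response element, 6.47%) and GAANNTTC (a pair of heat shock element units, 6.69%). Also searched were TGACGTCA (full cAMP response element, 1.55%, which contains the shortened one), TGANTCA (AP-1 site, 6.75%), CACGTG (E-box, 6.02%), GCGNGGGCG (EGR site, 4.7%, which can overlap a GC box) and the CArG box of SRF (1.47%). The Fos window held the TATA letters from 33 bases and the shortened element from 66 bases before the start, and the Atf3 window held the shortened element from 8 bases before it. The Atf3 window precedes a RefSeq start that lies inside the gene as annotated for the counts (191170296 to 191218039). Its positions therefore do not refer to the outer start of that annotation. The Jun window held the heat shock pair from 128 bases before the start. The GC box was in 5 of the 6 windows. The CArG box, the AP-1 site, the E-box and the full cAMP response element were in 0 of the 6. Bases farther upstream were not searched, so genes such as Fos may have these sites outside the windows. None of the letters searched were found in the Junb window, which says only that they are not in these 250 bases. The shortened element was chosen after the windows were seen.

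Egr1 (ENSMUSG00000038418, chromosome 18, 34859823 to 34864984 on mm10, plus strand) encodes a zinc-finger factor whose gene is a standard readout of SRF-dependent transcription. It had 19.7, 20.2, 21.9 and 19.2 CPM at 37 °C in libraries 1 to 4. At 40 °C it had 20.8, 25.6, 10.6 and 12.6 CPM, so 2 libraries lay near or above the 37 °C level and 2 far under it. At 44 °C it had 14.6, 18.3, 14.6 and 15.8 CPM, each lower than every 37 °C library. The log2 fold change at 44 °C over 37 °C was −0.36 ± 0.21 (SE; 95% interval −0.80 to 0.09, edgeR adjusted p = 0.259, not called).

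The spread of Egr1 was wide at 40 °C, and its part in the test at 44 °C against 37 °C was not tested. Its CV was 40.4% at 40 °C, beside 5.71% at 37 °C and 11.2% at 44 °C, and 99.7% of genes within 2-fold of its level had a smaller CV at 40 °C. With only the 8 libraries at 44 °C and 37 °C in the fit, Egr1 was called lower (log2 fold change −0.36, adjusted p = 0.0354, range over its alternatives 0.0354 to 0.387). At 44 °C over 40 °C its log2 fold change was −0.13, and 0.11 without 40 °C replicate 2 (adjusted p = 0.748), so that no direction can be given for that step.

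Ier2 (ENSMUSG00000053560, chromosome 8, 84661331 to 84662852 on mm10, minus strand) encodes a small nuclear protein and Ier3 (ENSMUSG00000003541, chromosome 17, 35821684 to 35822923 on mm10, plus strand) a small protein tied to cell survival, and both are induced by growth factors and stress. Ier2 had 65.5 to 85.7 CPM at 37 °C, 65.4 to 92.3 CPM at 40 °C and 64.2 to 87.2 CPM at 44 °C. Ier3 had 413, 318, 302 and 309 CPM at 37 °C in libraries 1 to 4, 326, 258, 299 and 356 CPM at 40 °C, and 407, 252, 342 and 281 CPM at 44 °C. Both genes overlapped at all temperatures. At 44 °C over 37 °C the log2 fold changes were 0.05 for Ier2 (95% interval −0.21 to 0.30, edgeR adjusted p = 0.822) and −0.07 for Ier3 (95% interval −0.36 to 0.23, adjusted p = 0.789). With 4076 to 8192 reads a library, counting gives Ier3 a CV of 1.32% to 1.38%, and the observed values were 15.5% (37 °C), 13.5% (40 °C) and 21.4% (44 °C).

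Myc (ENSMUSG00000022346, chromosome 15, 61985391 to 61990374 on mm10, plus strand) encodes the growth-promoting factor that drives ribosome and metabolic genes, and it responds to serum later than Fos. It had 209, 209, 211 and 209 CPM at 37 °C, 219, 216, 218 and 219 CPM at 40 °C, and 197, 227, 193 and 221 CPM at 44 °C. The 4 libraries at 40 °C lay just above the 4 at 37 °C, as held for 1.61% of all genes, while those at 44 °C fell on both sides. The log2 fold change was 0.06 at 40 °C over 37 °C (95% interval −0.05 to 0.18, edgeR adjusted p = 0.83). At 44 °C over 37 °C it was −7.8e-05 (95% interval −0.12 to 0.12, adjusted p = 0.999).

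Several of the 10 genes varied together between libraries of the same temperature, in 2 opposed sets. In each of the 3 groups, the library with the highest Ier3 also had the highest Jun and Fosb and the lowest Fosl1. Likewise, the library with the lowest Ier3 had the highest Fosl1, Ier2 and Egr1 in 3 of 3 groups, although at 37 °C Fosl1 was at 245 CPM in both replicate 3 and replicate 2. Replicate 1 at 37 °C and at 44 °C, and replicate 4 at 40 °C, were the libraries with high Ier3. Replicate 3 at 37 °C and replicate 2 at 40 °C and at 44 °C were those with low Ier3. The CV of Fosb was below that from counting alone at 40 °C (5.95% against 11.3%) and at 44 °C (6.94% against 9.58%). For Egr1 at 37 °C the 2 values were close (5.71% against 5.33%). The ranks of Fosb and Egr1 in those groups can therefore be counting error.

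For Ier3, Jun, Fosl1, Ier2 and Egr1, but not for Fosb, this pattern followed the main axis of within-group differences over all other tested genes. That axis held 29.7% of the within-group variance. In the edgeR fit with that axis as a covariate, Ier3 had a slope of −0.21 log2 per SD of the axis (adjusted p = 7.48e-09) and Jun −0.14 (adjusted p = 1.24e-06). Ier2 had 0.17 (adjusted p = 1.4e-06), Fosl1 0.09 (2.78e-05) and Egr1 0.20 (0.0126), and Junb had −0.04 (0.041). Fos, Fosb, Atf3 and Myc did not pass. The same test passed for 39.2% of all genes, so following the axis is common in these libraries. With the axis as covariate Junb had −0.29 at 44 °C over 37 °C. The axis is centred within each temperature, so adding it could hardly move this value, which is therefore no check of it.

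**Figure D4:**
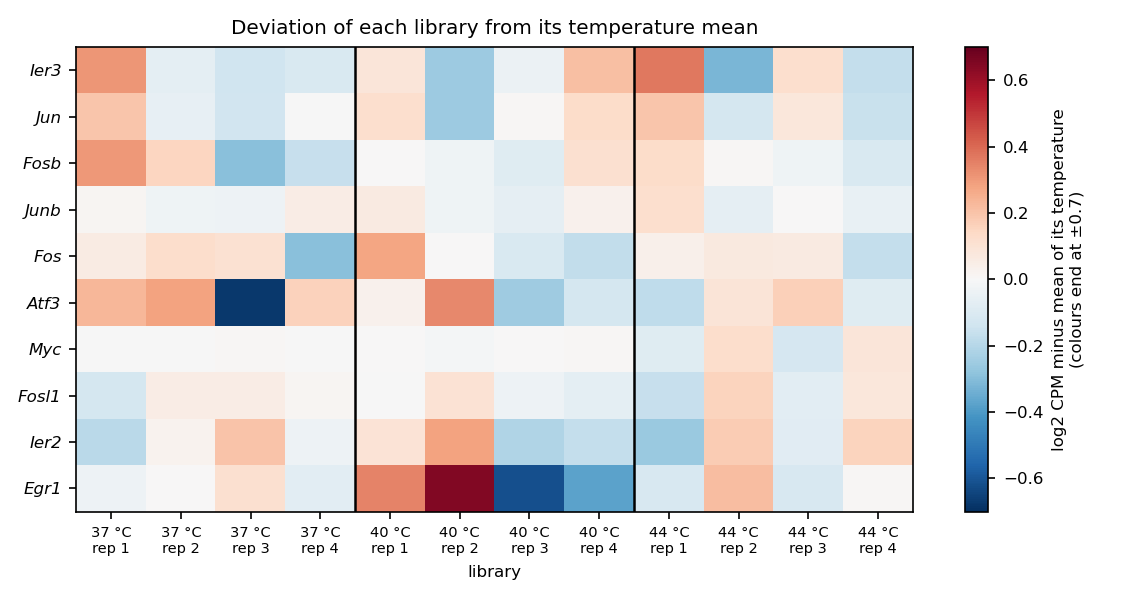
Deviation of each library from the mean of its temperature, in log2 CPM (colour, from −0.7 in blue to 0.7 in red), for the 10 genes (rows) and 12 libraries (columns, grouped by temperature). In replicate 1 at 37 °C and at 44 °C, Ier3, Jun and Fosb are red and Fosl1 and Ier2 are blue, while replicate 1 at 40 °C has Ier3, Jun and Ier2 all above their means.

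Related genes were described by lists of other immediate early genes and their regulators. The lists were chosen with earlier results of these data known, so their counts beside the shares over all genes are a description, not a test. Of 28 further immediate early genes that are mostly not transcription factors, 9 rose and 4 fell at 44 °C against 37 °C, with a median of 0.07, where 6.58% of all genes rose and 7.11% fell. The 4 with the smallest p all rose, namely Cyr61, a secreted matrix-associated growth regulator (1.05), Ptgs2, the inducible prostaglandin synthase (0.75), and Dusp5 (0.76) and Hbegf (0.77). Dusp5, a nuclear phosphatase that switches off ERK, averaged 53.5 ± 4.06 CPM at 44 °C, against 31.6 ± 4.23 CPM at 37 °C (edgeR adjusted p = 0.000276). Hbegf, an EGF receptor ligand, averaged 38.5 ± 2.57 CPM at 44 °C, against 22.6 ± 2.63 CPM at 37 °C (SD, n = 4 each, adjusted p = 0.000307). For 44 °C against 40 °C, 6 of the 28 rose and 1 fell, where 1.88% of all genes rose and 3.15% fell, with Cyr61 (0.65), Ptgs2 (0.58), Dusp5 (0.66) and the EGF receptor inhibitor gene Errfi1 (0.26) leading by p.

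Of 14 other immediate early regulators, 3 rose and 4 fell at 44 °C against 37 °C, with a median of −0.01, beside the same shares of all genes (6.58% higher, 7.11% lower). Srf, the gene of the factor that binds the serum response element, rose (109 ± 8.13 CPM at 44 °C, against 88.1 ± 6.38 CPM at 37 °C, with a log2 fold change of 0.30, edgeR adjusted p = 0.0125). Nr4a1, an orphan nuclear receptor gene induced like Fos, rose as well (0.25, adjusted p = 0.046). Nfkbiz, an NF-kB cofactor gene (−0.50, adjusted p = 0.00183), Id1, an inhibitor of bHLH factors (−0.35, adjusted p = 0.00691), and Klf2, a Krüppel-like factor gene (−0.67, adjusted p = 0.0255), fell. Nfkbiz was the 1 gene of this list called at 44 °C against 40 °C, and it was lower.

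Among 11 other AP-1 genes, whose median was −0.08, Mafg fell (−0.26, adjusted p = 0.00445) and Mafk rose (0.26, adjusted p = 0.036) at 44 °C against 37 °C in edgeR's test. Both encode small Maf proteins that pair with other bZIP factors. Mafg was also lower at 44 °C against 40 °C (−0.20, adjusted p = 0.0327). Fosl2 (0.04, adjusted p = 0.766) and Jund (−0.25, adjusted p = 0.116) were not called. Of 4 other EGR and NAB genes 0 were called by edgeR, Egr2 included (−0.03, adjusted p = 0.922). Of 22 upstream factors and kinases, such as the ERK, JNK and p38 genes, Srf alone was called, and the median was −0.06. In the MYC network, with a median of −0.19, 1 of 10 genes rose (Mga, 0.19) and 1 fell (Mxd4, −0.65), both partners of the Max protein that Myc also needs. That count is near the share over all genes (6.58% higher, 7.11% lower), as is the 1 of 11 each way among the AP-1 genes. The feedback genes Dusp1 (−0.01, adjusted p = 0.946), Zfp36 (−0.17, adjusted p = 0.402) and Btg2 (0.86, adjusted p = 0.0817) were not called. At 44 °C against 40 °C Srf, Fosl2, Jund, Egr2, Nr4a1, Dusp1, Zfp36 and Btg2 were not called. No gene of these lists was called at 40 °C against 37 °C by edgeR.

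**Figure D5:**
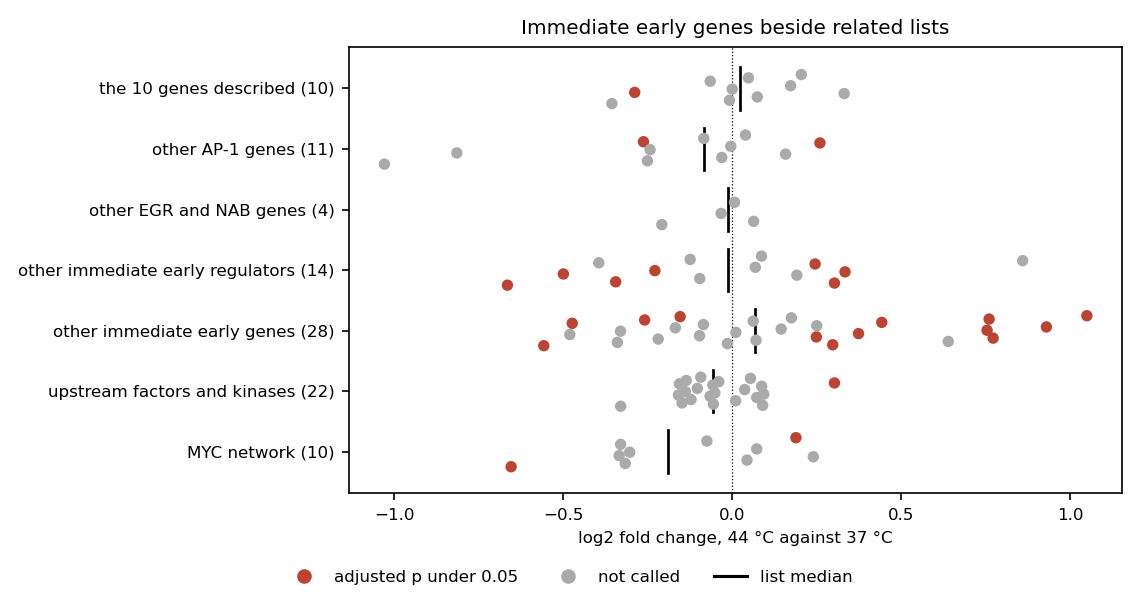
Log2 fold change at 44 °C over 37 °C (horizontal axis) of the 10 genes and of 6 related lists (rows, number of genes tested in brackets). Each point is a gene, red where called, and the black line is the list median. The list of other immediate early genes reaches to Cyr61 at 1.05, beyond any of the 10.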

How the data were processed

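The authors deposited 1 table of raw counts, genes in rows and libraries in columns, not normalized. The tools named are featureCounts 1.5.0-p3, StringTie 1.3.3b, HISAT2 2.0.5 and fastp, with build mm10, per the submitters' processing notes, which state neither their roles nor a strand setting. No read lacked a gene name, and 0 per-sample columns were left unused. Groups came from the sample titles. Genes and lists were chosen with earlier results of these data known.

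The analysis used edgeR 4.0.16 under R 4.3.3. Genes passing filterByExpr (minimum count 10, minimum total 15) were kept, which held all 10 genes described. TMM factors were applied, and all 12 libraries entered 1 quasi-likelihood fit with a mean for each temperature. Tests were two-sided, with Benjamini-Hochberg adjustment over 14424 genes. SE is the log2 fold change over the square root of F. Log2 CPM used a prior count of 2. DESeq2 1.42.0 served as an alternative, and the fit was tested on simulated data. The series design calls the replicates biological. Chi-square statistics per gene between the 18 pairs of libraries within groups (2.88 to 21.4) showed no copied library.

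Named were all 10 genes, up to 4 called genes with the smallest p per list and comparison, and Srf, Fosl2, Jund, Egr2, Nr4a1, Dusp1, Zfp36 and Btg2. The likeness result given was limited to genes passing the joint test. Family shares, the sharing of high and low libraries, Prdx2 and Junos were added after values were seen. Alternatives were another scaling, no filter, fits of only 2 groups, a replicate block, a covariate for the within-group axis, a threshold of 0.01 and leaving out each library. That axis is the first principal component of deviations from group means over the other tested genes, so it comes from the same libraries it adjusts.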

Additional observations from a re-analysis of the deposited data

Results flagged for a closer look

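In 5 of 30 sets of 4 libraries (10 genes at 3 temperatures), 1 library lay far from the other 3 by Dixon's criterion, where chance gives about 1 in 20 sets. Fos had 2.38 CPM in 37 °C replicate 4, beside 3.07 to 3.21 CPM in the other 3. Fos also had 3.03 CPM in 44 °C replicate 4, beside 3.50 to 3.58 CPM. Atf3 had 1.89 CPM in 37 °C replicate 3, beside 3.46 to 3.76 CPM. Ier3 had 413 CPM in 37 °C replicate 1, beside 302 to 318 CPM. Myc had 211 CPM in 37 °C replicate 3, beside 209 CPM in each of the others. The criterion compares a gap with the range and takes no account of counting error, so a flagged library can lie within it. Counting alone gives a CV of 1.66% for Myc at 37 °C and 13.1% for Fos at 44 °C. None of these 4 genes was called at 44 °C against 37 °C by edgeR, with or without the library concerned.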

How the results depend on the processing

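Of the 10 genes, 1 was called at 44 °C against 37 °C, 0 at 40 °C against 37 °C and 0 at 44 °C against 40 °C by edgeR. With the within-group axis as covariate these counts were 1 (Junb), 1 (Junb, adjusted p = 0.0498) and 2 (Junb and Fosb), over 5033, 596 and 3217 of all genes. With only the 2 groups compared the first was 2 (Junb and Egr1), over 1658 of all genes, and 334 genes were called at 44 °C against 40 °C. DESeq2 gave 2 (Junb and Fosb) at 44 °C against 40 °C, over 1220 genes, and 4 genes at 40 °C against 37 °C, where the fit with no filter gave 13. At a threshold of 0.01 there were 630 genes at 44 °C against 37 °C and 270 at 44 °C against 40 °C. Whether the replicate numbers pair the libraries was not settled. Correlations of same-numbered deviations lay between −0.207 and 0.366. In all, 6 of 12 libraries were most like one of their own number, where each had fewer candidates of its own number than of others. With the replicate block 2557 genes were called at 44 °C against 37 °C, 901 at 44 °C against 40 °C and 0 at 40 °C against 37 °C, and the counts of the 10 stayed at 1, 0 and 0. Leaving out 1 library gave 1 to 1, 0 to 0 and 0 to 1 of the 10 in the same order of comparisons. Over all genes it gave 979 to 3322 at 44 °C against 37 °C, 0 to 1 at 40 °C against 37 °C and 394 to 1261 at 44 °C against 40 °C. The first lay past 1.5 times without 37 °C replicate 1 (979), 2 (1156) or 4 (1063) and 44 °C replicate 1 (3322), 2 (980) or 4 (1064). The last did so without 40 °C replicate 1 (394), 3 (421) or 4 (420) and 44 °C replicate 1 (1261), 2 (426) or 4 (456).

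The causes were not tested. Signs turned only for log2 fold changes that were not called. Myc at 44 °C over 37 °C had 0.00013 with library totals, 0.00067 with RLE factors and 0.00066 with DESeq2. Leaving out 1 library at 44 °C over 37 °C gave −0.076 to 0.058 for Jun, −0.017 to 0.13 for Ier2, −0.20 to 0.046 for Ier3, −0.0095 to 0.26 for Atf3 and −0.042 to 0.038 for Myc. At 40 °C over 37 °C it gave −0.062 to 0.10 for Fos, −0.072 to 0.10 for Ier2 and −0.19 to 0.0015 for Ier3. At 44 °C over 40 °C it gave −0.042 to 0.063 for Fosl1, −0.31 to 0.11 for Egr1, −0.052 to 0.12 for Ier2 and −0.086 to 0.15 for Ier3. Counting alone gives Fos, Fosb and Atf3 a CV of 9.58% to 14.6%, and the observed CV at 37 °C was 13.2%, 19.3% and 27.4%.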

Other observations

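Myc varied less between libraries at 37 °C and at 40 °C than counting alone would give. Its CV was 0.394% at 37 °C and 0.613% at 40 °C, where counting gives 1.66% and 1.63%, and it was 8.26% at 44 °C. Within 2-fold of its level, 1 of 2082 genes had a smaller CV at 37 °C and 1 of 2016 at 40 °C. At 44 °C, 1315 of 2096 had a smaller one. Myc was singled out after its values were seen, as an extreme among many, and the difference in spread between temperatures was not tested.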
